A study of Mus musculus with 18 samples.

Results

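This is an account of mouse macrophages that were loaded with cholesterol, exposed to reconstituted high-density lipoprotein (rHDL) and then stimulated with lipopolysaccharide (LPS), compared with macrophages that were loaded and stimulated without rHDL. The samples were chosen by their labels: 3 libraries of loaded, rHDL-treated cells and 3 libraries of loaded cells without rHDL, which makes 6 of the 18 libraries of the series. All genes with enough reads were compared, 8965 of the 24059 gene symbols in the count table.

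The macrophages were grown from C57BL/6J bone marrow, differentiating over 7 days in medium with 20% L929-conditioned medium and kept at 4% afterwards. Loading was done with liposomes of the phospholipid POPC and cholesterol. The rHDL was CSL111, a particle of apolipoprotein A-I (APOA1) with phosphatidylcholine from soybean in the ratio 1:150, which was given on day 8 for 20 h and then washed away before LPS. The first group therefore had loading, rHDL and LPS, and the second had loading and LPS. A further 6 libraries, used only where the 2 rHDL effects are set side by side, had rHDL and LPS or LPS alone, with no loading. The labels give no dose or duration for LPS or for loading. Nothing states that the 3 libraries of a group came from separate cultures or animals, so p-values measure only the spread between these libraries. In bulk RNA, fewer cells of one type and less RNA per cell cannot be told apart.

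Macrophages sense sterols through a pair of opposed transcription factor systems. SREBP2 turns on cholesterol synthesis and uptake when membranes are poor in cholesterol, and the liver X receptors (LXRs) turn on cholesterol export and fatty acid desaturation when oxysterols accumulate. HDL takes up cholesterol from macrophages through the transporters ABCA1 and ABCG1, and free cholesterol in excess disturbs the endoplasmic reticulum (ER), where the unfolded protein response raises chaperone genes. LPS acts through Toll-like receptor 4 and sets off cytokine, chemokine and interferon programmes.

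The 6 libraries held 12285431, 10065054 and 12088944 counted reads with rHDL after loading, against 12225366, 9464916 and 10596719 with loading alone. Of the 8 macrophage markers 7 were present, with a summed level of 18470 to 20820 CPM (read counts scaled to a common library size) against 21150 to 22430 CPM, while Itgam was at 0 in every one of these libraries. A level of 0 need not mean that a gene was silent. Of the 32850 annotated rows 6696 have no exon base of their own, and all of these hold 0. Marker sums are scaled by library totals, unlike the levels of single genes below, so part of a gap between groups can come from scaling. Summed markers of neutrophils were 5.79 to 7.81 CPM against 8.26 to 10.5 CPM, with S100a9 and Mpo at 0. Those of dendritic cells, mostly Itgax, were 70.3 to 93.0 CPM against 77.9 to 161 CPM, with Siglech at 0. Lymphoid markers were at most 0.326 CPM with rHDL and 0.327 CPM without, and those of mast, erythroid and megakaryocyte cells at most 0.570 and 0.423 CPM. Replicate 1 of the loaded rHDL group differed from replicates 2 and 3 of its group by a chi-square per degree of freedom of 27.9 and 20.1, against 3.00 to 19.4 for the other pairs within a group. With rHDL and no loading, replicate 1 likewise differed from 2 and 3 by 19.4 and 12.4, against 3.00 between those. Replicates 1 and 2 were the most unlike pair in every group. In replicate 1 of the loaded rHDL group the third of genes with the shortest transcripts lay 0.18 above, and the third with the longest 0.17 below, on the log2 scale relative to its group.

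After loading, most genes of the LPS-stimulated transcriptome did not pass the test for an rHDL effect. Those that did included 8 of 18 tested cholesterol synthesis genes, all higher, and 6 of 15 LXR targets and 10 of 24 genes of the unfolded protein response and ER folding, all lower. The 6 LXR targets include the desaturase genes Scd1 and Scd2. The HSP70 genes Hspa1a and Hspa1b and the chemokine receptor gene Cxcr4 were also lower. A gene was called when edgeR's quasi-likelihood test gave a Benjamini-Hochberg adjusted p under 0.05 over all 8965 genes. By this rule 38 genes rose, 0.424% of those tested, and 53 fell, 0.591%. An unadjusted p under 0.05 was found for 1044 genes. The fit held no block for the replicate number, since the labels do not say that the numbers pair libraries. With such a block it called 277 genes higher and 209 lower. Scaling by library totals gave 25 higher and 67 lower calls, and the median over all genes was then -0.06 in place of 0.00 on the log2 scale.

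The changes were mostly modest. Of the 91 called genes 18 changed by at least 2-fold and 50 by less than 1.5-fold, and in all 91 the 3 libraries of one group did not overlap the 3 of the other. Over all tested genes, such non-overlap was seen for 7.23% on the higher side and 8.10% on the lower side. Without replicate 1 of the loaded rHDL group the test called 68 higher and 55 lower, and 68 of the 91 genes were among these 123. Without replicate 2 or 3 of the loaded rHDL group it called 55 or 56 genes, and without replicate 1, 2 or 3 of the loaded control group 46, 30 or 35. A call was kept without each of the 6 libraries in turn for 25 genes, 6 of them higher and 19 lower.

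Of 20 listed genes of cholesterol synthesis 18 were tested, 8 rose and 0 fell. A change above 0 was seen for 13 and below 0 for 5, the lowest being Pmvk, a mevalonate pathway kinase (-0.32, adjusted p = 0.836), and Lss, lanosterol synthase (-0.26, adjusted p = 0.720). The median log2 change of the list was 0.65, beside 0.00 over all genes. Cyp51, the lanosterol demethylase, (mm10, chromosome 5, 4080674 to 4104697) had 34.5, 38.2 and 31.9 CPM with rHDL after loading, against 14.9, 16.1 and 13.2 CPM with loading alone. It was 2.37-fold higher (log2 change 1.24 ± 0.12 SE, adjusted p = 0.000103), and every rHDL library lay above every control library.

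Idi1, which isomerises isopentenyl diphosphate early in the pathway, had 3.54, 5.15 and 3.83 CPM with rHDL after loading and 1.06, 0.918 and 2.05 CPM with loading alone, a rise of 1.62 ± 0.26 (adjusted p = 0.00702). Sc5d, a sterol desaturase late in the pathway, had 21.1, 24.6 and 20.0 CPM against 11.01, 10.3 and 11.2 CPM, a rise of 1.01 ± 0.14 (adjusted p = 0.00207). These 3 genes kept their calls whichever library was left out. Other risers were the squalene-forming and squalene-oxidising enzymes Fdft1 (1.03 ± 0.18) and Sqle (0.83 ± 0.16), and the sterol-modifying enzymes Msmo1 (0.87 ± 0.14) and Hsd17b7 (1.12 ± 0.19).

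Each of those 4 calls was lost in at least 1 of the fits that left out a library, and such fits hold fewer libraries. Without replicate 1 of the loaded controls Fdft1 and Sqle were not called (adjusted p = 0.0777 and 0.0932), without replicate 2 Fdft1, Sqle and Msmo1 were not (0.0871, 0.0673 and 0.0532), and without replicate 3 Sqle, Msmo1 and Hsd17b7 were not (0.0657, 0.0581 and 0.0657). Without replicate 2 of the loaded rHDL group Fdft1 and Sqle were not called (0.0557 and 0.0619). The count of 8 stayed at 8 without replicate 1 or 3 of the loaded rHDL group and was 4 to 5 without any one of the others. The log2 changes of these 4 genes ranged from 0.72 to 1.25 over these fits.

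Insig1, the sterol-regulated anchor that retains SREBP in the ER, had 44.9, 44.2 and 45.2 CPM with rHDL after loading, against 46.1, 46.9 and 52.1 CPM with loading alone (-0.11 ± 0.07, adjusted p = 0.596).

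Of 7 tested genes of SREBP2 regulation and sterol uptake, 0 were called by edgeR at a median of 0.00, with 1 at an unadjusted p under 0.05. That one was Stard4, a cytosolic sterol carrier (0.80 ± 0.24, adjusted p = 0.154), which DESeq2 called. In levels, Cyp51 averaged 34.9 ± 3.16 CPM with rHDL after loading and 14.7 ± 1.48 CPM with loading alone, and without loading 311 ± 16.5 CPM with rHDL and 136 ± 17.5 CPM with LPS alone (SD, n = 3 each). The rHDL effect on Cyp51 was 1.24 after loading and 1.197 without it, and the difference of 0.05 ± 0.15 was not called (adjusted p = 0.847). For Insig1 the difference was called, at -0.11 after loading and 1.25 without (difference -1.36 ± 0.10, adjusted p = 6.17e-07).

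**Figure D1:**
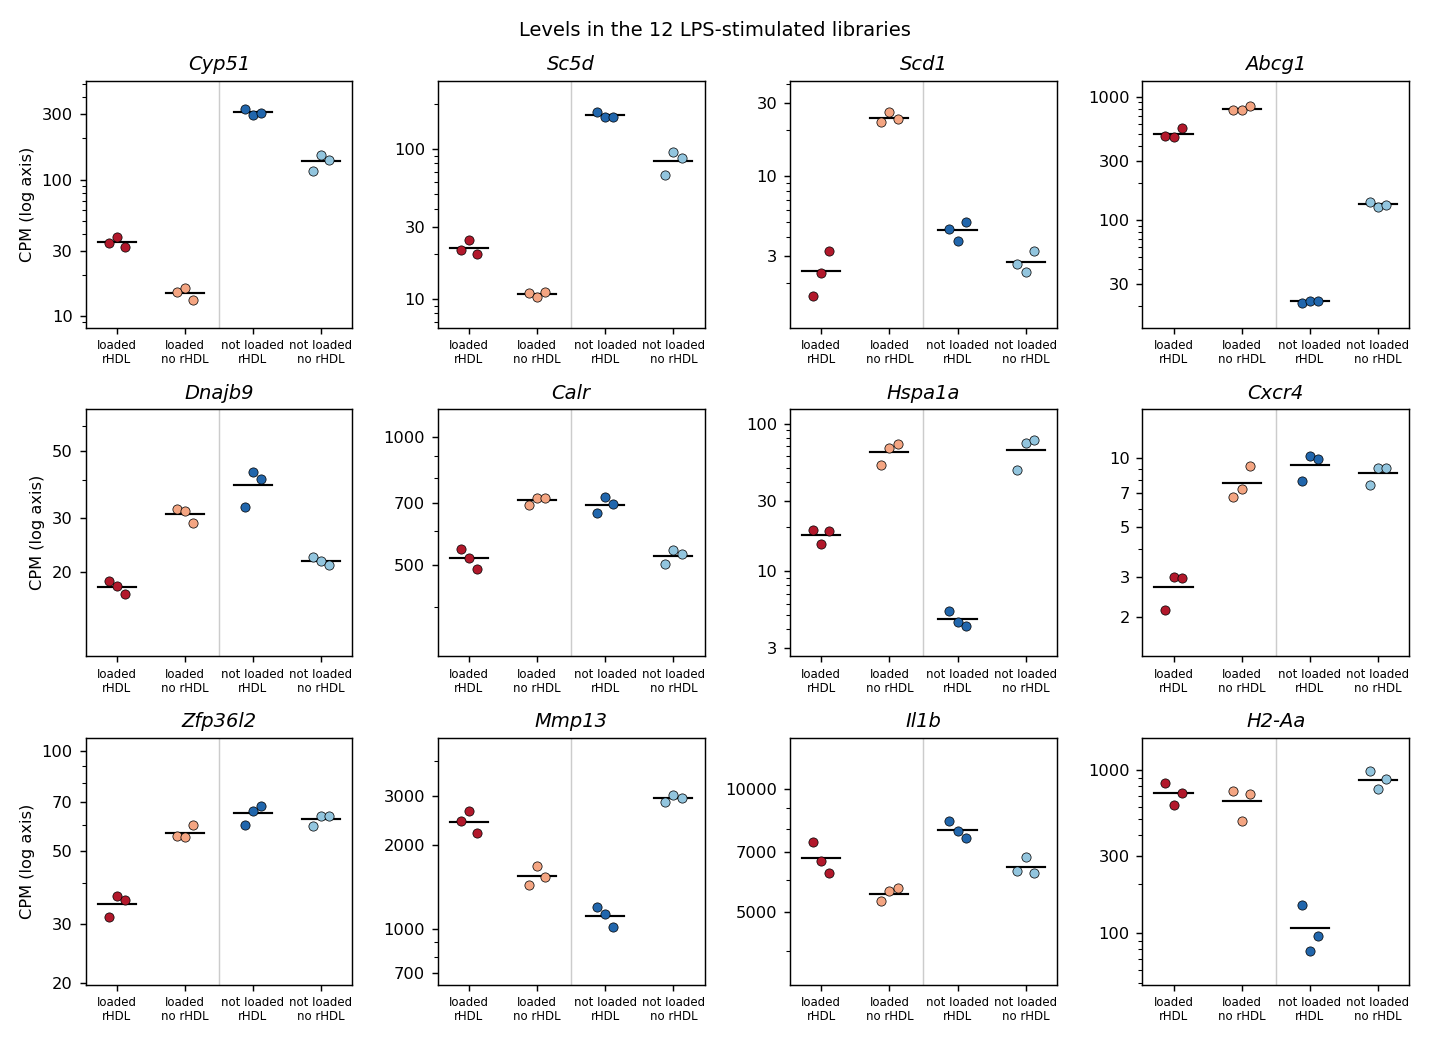
CPM on a log axis for 12 genes in the 12 LPS-stimulated libraries, with 1 point per library and a line at the mean of each group of 3: loading with rHDL, loading alone, rHDL without loading and LPS alone. Cyp51 and Sc5d are higher and Scd1, Abcg1, Dnajb9, Calr, Hspa1a, Cxcr4 and Zfp36l2 lower in the loaded rHDL libraries than in the loaded libraries without rHDL, with no overlap.

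Of 15 tested LXR targets 6 were called lower and 0 higher, 12 had a change below 0 and 3 above, and the median log2 change was -0.35. DESeq2 called 8 lower, the same 6 with Abca1 and Lpl, a lipase. Apoe, apolipoprotein E, and Smpdl3a, a phosphodiesterase, were higher without overlap but not called (0.24, adjusted p = 0.452, and 0.17, adjusted p = 0.403). Pltp, a phospholipid transfer protein, and Srebf1, which encodes SREBP1, were not called either (-0.04, adjusted p = 0.857, and -0.12, adjusted p = 0.532). Scd1 and Scd2, stearoyl-CoA desaturases that make monounsaturated fatty acids, had the largest falls of all called genes. Scd1 (chromosome 19, 44394450 to 44407709) had 1.64, 2.33 and 3.24 CPM with rHDL after loading, against 22.8, 26.2 and 23.6 CPM with loading alone, and fell by 3.32 ± 0.18 on the log2 scale (adjusted p = 2.61e-07).

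Scd2 had 2.51, 4.47 and 2.21 CPM with rHDL after loading and 12.1, 14.4 and 10.9 CPM with loading alone (-2.04 ± 0.30, adjusted p = 0.00429). With loading alone and with LPS alone Scd2 averaged 12.5 ± 1.76 and 10.9 ± 4.77 CPM, and Scd1 24.2 ± 1.79 and 2.76 ± 0.463 CPM (SD, n = 3 each). The rHDL effect on both genes differed by loading: for Scd1 it was -3.32 after loading and 0.69 without (difference -4.01 ± 0.28, adjusted p = 4.74e-07), and for Scd2 -2.04 and 0.10 (difference -2.13 ± 0.40, adjusted p = 0.00104).

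Among the export genes, Abcg1, a transporter that passes cholesterol to HDL, had 481, 467 and 554 CPM with rHDL after loading against 784, 780 and 839 CPM with loading alone, and fell by 0.68 ± 0.07 (adjusted p = 0.000261). Abca1, the partner transporter that lipidates APOA1, had 1014, 1435 and 1398 CPM against 1711, 1799.5 and 1717 CPM. The Abca1 libraries did not overlap, and the change of -0.44 ± 0.11 was called by DESeq2 but not by edgeR (95% interval -0.68 to -0.20, adjusted p = 0.0944).

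Both transporter genes also fell with rHDL when there had been no loading, with log2 changes of -2.62 for Abcg1 and -3.21 for Abca1, and the differences between the effects were 1.94 ± 0.11 (adjusted p = 1.33e-07) and 2.77 ± 0.16 (adjusted p = 1.71e-07). Arl4c, a small GTPase linked to cholesterol transport, had 16.8, 17.6 and 15.7 CPM with rHDL after loading and 32.3, 32.0 and 30.1 CPM with loading alone (-0.92 ± 0.09, adjusted p = 0.000175). Its fall without loading was 1.12, and the difference of 0.20 ± 0.13 was not called (adjusted p = 0.271).

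Lpcat3, which puts polyunsaturated chains into phospholipids, changed by -0.47 ± 0.08 (adjusted p = 0.00773), a call lost without replicate 3 of the loaded controls (adjusted p = 0.0581). Mylip, which encodes the ligase that degrades the LDL receptor, is outside the rule for named genes and is given to complete the 6. It changed by -0.38 ± 0.08 (adjusted p = 0.0251), and the call was lost without replicate 2 of the loaded rHDL group (0.0793) or replicate 1, 2 or 3 of the loaded controls (0.0813, 0.105 and 0.121). The count of 6 LXR targets stayed at 6 without replicate 1 or 3 of the loaded rHDL group, was 5 without replicate 2 of it or replicate 1 or 2 of the controls, and was 4 without replicate 3 of the controls.

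All 10 tested genes of fatty acid synthesis had a log2 change below 0, with a median of -0.37, and 2 of them, Scd1 and Scd2, were called. Both are also in the LXR list. Elovl5, an elongase, had 41.0, 41.3 and 44.2 CPM with rHDL after loading against 51.8, 55.3 and 57.8 CPM with loading alone, and was called by DESeq2 but not by edgeR (-0.38 ± 0.09, adjusted p = 0.0555). The count of 10 includes Fads2, which held 1 to 2 reads a library with rHDL after loading and 3 to 7 with loading alone and passed the filter on low counts through the libraries without loading.

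**Figure D2:**
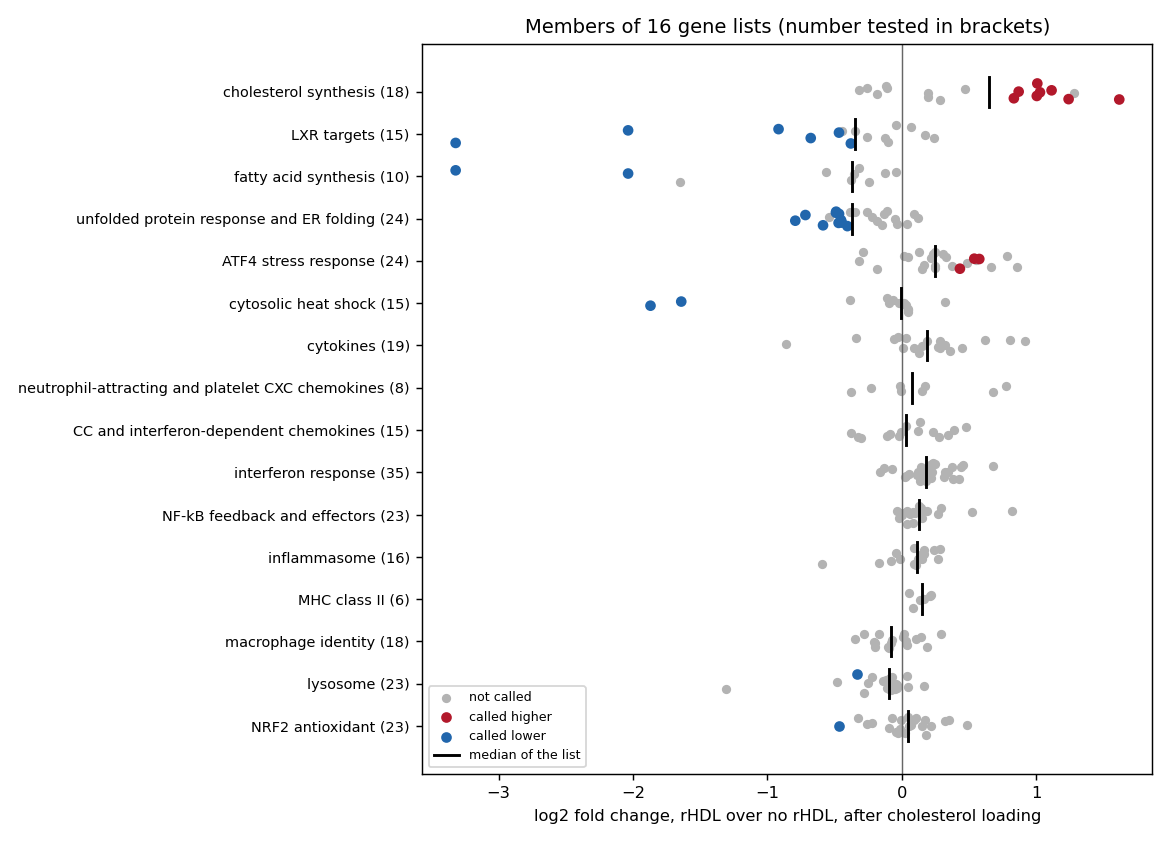
Log2 fold change after loading, rHDL over no rHDL, for every tested member of 16 gene lists, with called members in colour and a black line at each list's median. Called rises lie in the cholesterol synthesis and ATF4 lists, and called falls in the LXR, fatty acid, unfolded protein response, heat shock, lysosome and NRF2 lists, while the cytokine, chemokine, interferon and MHC class II lists hold none.

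Of 24 tested genes of the unfolded protein response and ER folding, 10 were called lower and 0 higher, 21 had a change below 0, and the median was -0.37. Dnajb9, a co-chaperone of BiP, had 18.7, 18.0 and 16.9 CPM with rHDL after loading, against 32.1, 31.7 and 28.9 CPM with loading alone (-0.79 ± 0.10, adjusted p = 0.00167). Sdf2l1, an ER-resident partner of such co-chaperones, had 23.3 to 28 CPM against 40.2 to 42.3 CPM (-0.72 ± 0.09, adjusted p = 0.00116).

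Dnajc3, another BiP co-chaperone and an inhibitor of eIF2-alpha kinases, had 77.5, 81.2 and 81.1 CPM with rHDL after loading and 113, 126 and 121 CPM with loading alone (-0.59 ± 0.08, adjusted p = 0.00207). Calr, calreticulin, a calcium-binding lectin chaperone, had 547, 520 and 491 CPM against 691, 720 and 719 CPM (-0.45 ± 0.06, adjusted p = 0.00285). For these 4 genes no library of one group overlapped the other.

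The other called members were chosen for the text after their values were seen, to complete the 10. Hsp90b1, the ER form of HSP90, had 445, 455 and 410 CPM with rHDL after loading against 604, 635 and 599 CPM with loading alone (-0.49 ± 0.07, adjusted p = 0.00516). The disulphide isomerase genes Pdia3 (-0.47 ± 0.07), Pdia4 (-0.49 ± 0.09) and Pdia6 (-0.40 ± 0.07), the secreted ER stress factor Manf (-0.45 ± 0.07) and the large chaperone Hyou1 (-0.47 ± 0.10) fell by similar amounts.

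Of the 10, Dnajb9, Sdf2l1, Dnajc3, Calr, Hsp90b1, Pdia3 and Manf kept their calls without each library in turn. Pdia4 lost its call without replicate 3 of the loaded rHDL group (adjusted p = 0.0551) and without replicate 2 or 3 of the controls (0.0712 and 0.0581), and Pdia6 without replicate 1 or 2 of the controls (0.0751 and 0.0630). Hyou1 lost it without replicate 1 or 3 of the loaded rHDL group (0.0766 and 0.0930) and without any control library (0.0779, 0.140 and 0.134). The list's count was 9 without replicate 1 of the loaded rHDL group and 7 to 10 over all 6 fits.

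Of called genes outside this list 3 that act at the ER membrane were chosen after their values were seen, and no list of such genes was tested. Rpn1 of the oligosaccharyltransferase fell by 0.36 ± 0.07, Tram1 of the translocation channel by 0.32 ± 0.06, and Spcs2 of the signal peptidase by 0.27 ± 0.06. Each of these calls was lost without replicate 2 or 3 of the loaded rHDL group or without any one control library, at adjusted p from 0.0557 to 0.160. Sec61b and Ssr3, translocation genes inside the list, were not called (-0.22, adjusted p = 0.453, and -0.11, adjusted p = 0.457).

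The rHDL effect on ER genes differed by loading. With no loading 14 of the 24 rose with rHDL and 1 fell, beside 18.1% and 18.4% of all tested genes. For the difference, after loading minus without, 15 were called lower and 0 higher, beside 14.2% and 16.0% of all tested genes. Dnajb9 changed by -0.79 after loading and 0.83 without (difference -1.62 ± 0.14, adjusted p = 2.90e-06), and Calr by -0.45 and 0.40 (difference -0.85 ± 0.09, adjusted p = 1.30e-05). In levels, Calr with rHDL after loading averaged 519 ± 27.9 CPM, against 710 ± 16.9 CPM with loading alone, and the groups without loading had 693 ± 30.5 CPM with rHDL and 526 ± 20.1 CPM with LPS alone (SD, n = 3 each).

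The promoters of some of these genes carry an exact ER stress element, in which CCAAT and CCACG lie 9 bases apart. It was searched on both strands of windows with 250 bases before and 50 after each gene's start (RefSeq, GRCm38.p6, the assembly that mm10 denotes). The element occurred in 37 of 27025 genes with a window, 0.137%, and in 9 of the 23 listed ER genes that had one, 39.1%. Of tested genes with a window, 7 of 6810 held it, or 0.103%. These were Calr, Dnajc3, Hsp90b1, Pdia6, Creld2, Syvn1 and Alg12. The 4 that were called lower are shown, since they are the genes in which the element and the fall coincide. Each line gives the element in capitals, on either strand, with up to 40 bases on each side, read 5′ to 3′ along the gene's annotated strand. As a check of direction, bases after the start were sought in annotated transcripts of the same gene. They were found for 3 of the 4 genes.

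Calr: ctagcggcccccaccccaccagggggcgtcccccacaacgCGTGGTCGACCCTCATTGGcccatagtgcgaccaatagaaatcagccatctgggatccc
Dnajc3: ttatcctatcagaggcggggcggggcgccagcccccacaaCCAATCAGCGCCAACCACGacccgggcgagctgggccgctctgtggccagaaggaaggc
Hsp90b1: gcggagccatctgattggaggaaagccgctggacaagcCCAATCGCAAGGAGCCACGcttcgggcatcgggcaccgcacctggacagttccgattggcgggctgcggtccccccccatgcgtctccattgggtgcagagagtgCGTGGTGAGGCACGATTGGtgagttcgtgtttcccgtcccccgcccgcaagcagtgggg
Pdia6: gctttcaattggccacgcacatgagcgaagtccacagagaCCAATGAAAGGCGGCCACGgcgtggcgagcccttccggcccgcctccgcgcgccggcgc

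The Calr stretch is chr8:84847035-84847133 on the minus strand, the Dnajc3 stretch chr14:118937787-118937885 on the plus strand, the Hsp90b1 stretch chr10:86705493-86705694 on the minus strand and the Pdia6 stretch chr12:17266451-17266549 on the plus strand. All lie upstream of the annotated first exon. Hsp90b1 holds the element in both orientations, 212 and 107 bases before the start, and the others hold it once, 162 (Calr), 105 (Dnajc3) and 98 (Pdia6) bases before it. In Calr the element reads CGTGG before ATTGG, the reverse complement of its form in Dnajc3 and Pdia6.

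All 7 genes with the element had a log2 change below 0 after loading, with a median of -0.45. The 3 that were not called were Creld2, an ER disulphide isomerase (22.6, 22.95 and 20.7 CPM with rHDL after loading, against 27.3, 26.2 and 30.9 CPM with loading alone, -0.35 ± 0.09, adjusted p = 0.0803), Syvn1, a ligase of ER-associated degradation (-0.54 ± 0.37, adjusted p = 0.624), and Alg12, a mannosyltransferase (-0.08 ± 0.30, adjusted p = 0.942). Syvn1 and Alg12 had under 3 CPM in every library of both groups. Of the 39 genes called lower that had a window, 4 held the element, 10.3%, and of the 27 called higher 0 did. Either part alone was common, with CCAAT in 41.1% and CCACG in 35.5% of all genes with a window, and a letter match shows neither binding nor a cause.

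Other elements were searched in the same windows on both strands. The amino acid response element, TGATGNAAN, was in 5 of the 27 genes called higher, 18.5%, in 2 of the 39 called lower, 5.13%, and in 2.78% of tested genes with a window. It was in 10 of the 25 ATF4 list genes with a window. The sterol regulatory element, TCACNCCAC, was in 1 of 27 called higher, 1 of 39 called lower and 1 of 15 cholesterol synthesis genes with a window, against 1.17% of tested genes. The heat shock element, in which GAA, TTC and GAA follow each other 2 bases apart, was in 0 of the called genes with a window, in 4 of 13 cytosolic heat shock genes, 30.8%, and in 0.617% of tested genes.

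The HSP70 genes also fell. Hspa1a had 19.1, 15.2 and 18.6 CPM with rHDL after loading, against 52.4, 68.6 and 73.0 CPM with loading alone, a change of -1.87 ± 0.17 (adjusted p = 0.000103). Hspa1b had 23.9, 16.9 and 18.8 CPM against 50.02, 69.1 and 67.6 CPM (-1.64 ± 0.18, adjusted p = 0.000330). The copies are nearly identical, so the split of reads between them is uncertain, and both calls held without each library in turn.

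Other cytosolic heat shock genes did not pass the test: of 15 tested these 2 were called, and the median was 0.00. The next smallest p belonged to Hsph1, a nucleotide exchange factor for HSP70 (-0.38 ± 0.11, adjusted p = 0.145). With no loading the falls with rHDL were larger, 3.82 for Hspa1a and 3.40 for Hspa1b, and both differences were called (1.95 ± 0.27, adjusted p = 0.000111, and 1.75 ± 0.27, adjusted p = 0.000273).

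The ATF4 list, the amino acid and integrated stress response, had changes mostly above 0. Of 24 tested genes edgeR called 3 higher and 0 lower, beside 0.424% and 0.591% of all tested genes. DESeq2 called 4 of the list higher and 1 lower. In 21 the change was above 0, beside 4486 of all 8965 tested genes, and the median was 0.25. Chac1, a glutathione-degrading enzyme, had 31.0, 28.8 and 27.1 CPM with rHDL after loading, against 20.1, 20.7 and 17.5 CPM with loading alone (0.58 ± 0.11, adjusted p = 0.0245). Trib3, a pseudokinase, had 40.3, 38.7 and 41.8 CPM against 28.4, 27.0 and 27.6 CPM (0.54 ± 0.10, adjusted p = 0.0198).

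Slc7a5, a transporter of large neutral amino acids, had 161, 190 and 186 CPM with rHDL after loading and 135, 134 and 129 CPM with loading alone (0.43 ± 0.10, adjusted p = 0.0498). Scaled by library totals its change was not called (adjusted p = 0.159). Of these 3 genes, 0 were called without replicate 1, 2 or 3 of the loaded controls. The list held 4 called rises without replicate 1 of the loaded rHDL group and 1 without replicate 2 or 3 of it. Atf3, a stress-induced factor, was at 998, 706 and 881 CPM against 848, 719 and 795 CPM (0.13 ± 0.12, adjusted p = 0.736).

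Among single genes, Cxcr4, the receptor for CXCL12 that holds myeloid cells in marrow and tissue, had the largest fall among called genes outside the lipid and heat shock lists. The gene lies on chromosome 1, 128588199 to 128592299. It had 2.16, 3.01 and 2.98 CPM with rHDL after loading, against 6.77, 7.34 and 9.24 CPM with loading alone, a fall to 0.350 of the control level (log2 change -1.52 ± 0.19, adjusted p = 0.00116). With no loading rHDL changed it by 0.12, which was not called (adjusted p = 0.574), and the difference was -1.63 ± 0.24 (adjusted p = 0.000201). The other 8 tested chemokine receptors were not called by edgeR or DESeq2, and 1 of them had an unadjusted p under 0.05.

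Zfp36l2, an RNA-binding protein that promotes decay of AU-rich messages, had 31.5, 36.5 and 35.5 CPM with rHDL after loading and 55.2, 55.1 and 59.9 CPM with loading alone (-0.72 ± 0.08, adjusted p = 0.000339). Aph1c, a gamma-secretase subunit, had 3.98, 5.74 and 5.20 CPM against 8.40, 10.9 and 10.2 CPM (-0.98 ± 0.16, adjusted p = 0.00702). Both, like Cxcr4, kept their calls without each library in turn.

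Hbegf, a growth factor of the EGF family, had 6.22, 4.86 and 5.03 CPM with rHDL after loading and 7.91, 9.99 and 11.4 CPM with loading alone (-0.85 ± 0.17, adjusted p = 0.0248). Plau, the urokinase plasminogen activator, had 23.9, 23.5 and 22.7 CPM against 31.2, 34.5 and 46.4 CPM (-0.68 ± 0.13, adjusted p = 0.0217). Cbr2, a carbonyl reductase, fell by 0.93 ± 0.16 (adjusted p = 0.0120). Each of these calls was lost in some of the fits that left out a library. Hbegf and Plau lost theirs without replicate 2 or 3 of either group, with adjusted p from 0.0532 to 0.143, and Cbr2 without replicate 3 of the loaded rHDL group (0.0537) or replicate 2 or 3 of the controls (0.0590 and 0.0657).

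Mmp13, a collagenase, was the most abundant of the named risers. It had 2428, 2639 and 2200.4 CPM with rHDL after loading, against 1437, 1683 and 1544 CPM with loading alone (0.64 ± 0.08, adjusted p = 0.00191). With no loading it fell by 1.39 with rHDL, and the difference was 2.03 ± 0.12 (adjusted p = 1.71e-07). Ezr and Ccrn4l, chosen after their values were seen because their rises also held without each library in turn, encode the membrane-actin linker ezrin and the circadian deadenylase nocturnin.

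Ezr had 333, 391 and 345 CPM with rHDL after loading against 249.9, 252 and 254 CPM with loading alone (0.50 ± 0.07, adjusted p = 0.00285). Ccrn4l had 372, 383 and 364 CPM against 259, 275 and 267 CPM (0.48 ± 0.06, adjusted p = 0.00123). Gpr84, a receptor for medium-chain fatty acids that was likewise chosen afterwards, rose by 0.57 ± 0.10 (adjusted p = 0.0107), and the call was lost without replicate 2 of the controls (0.0712). Ezr and Gpr84 fell with rHDL when there had been no loading, by 0.64 and 1.00.

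Col4a1 and Col4a2, neighbouring genes for basement membrane collagen, had 35.9, 26.2 and 39.3 CPM and 25.8, 22.3 and 31.9 CPM with rHDL after loading, against 15.4, 11.7 and 19.9 CPM and 14.4, 11.01 and 16.7 CPM with loading alone. The changes were 1.11 ± 0.22 (adjusted p = 0.0243) and 0.92 ± 0.20 (adjusted p = 0.0466). Col4a1 lost its call without replicate 3 of the loaded rHDL group (0.104) or replicate 1 or 2 of the controls (0.0847 and 0.122), and Col4a2 kept its call only without replicate 2 of the loaded rHDL group. Summed stromal markers, scaled by library totals, were 1.14 to 3.78 CPM with rHDL after loading and 0.951 to 17.7 CPM with loading alone. Pecam1 and Pdgfrb were at 0, which need not mean that they were silent. The part of stromal cells in the collagen values was not tested. U90926, an RNA for which no role is given here, rose by 1.28 ± 0.28 (adjusted p = 0.0398), and its call was kept only without replicate 2 of the loaded rHDL group.

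**Figure D3:**
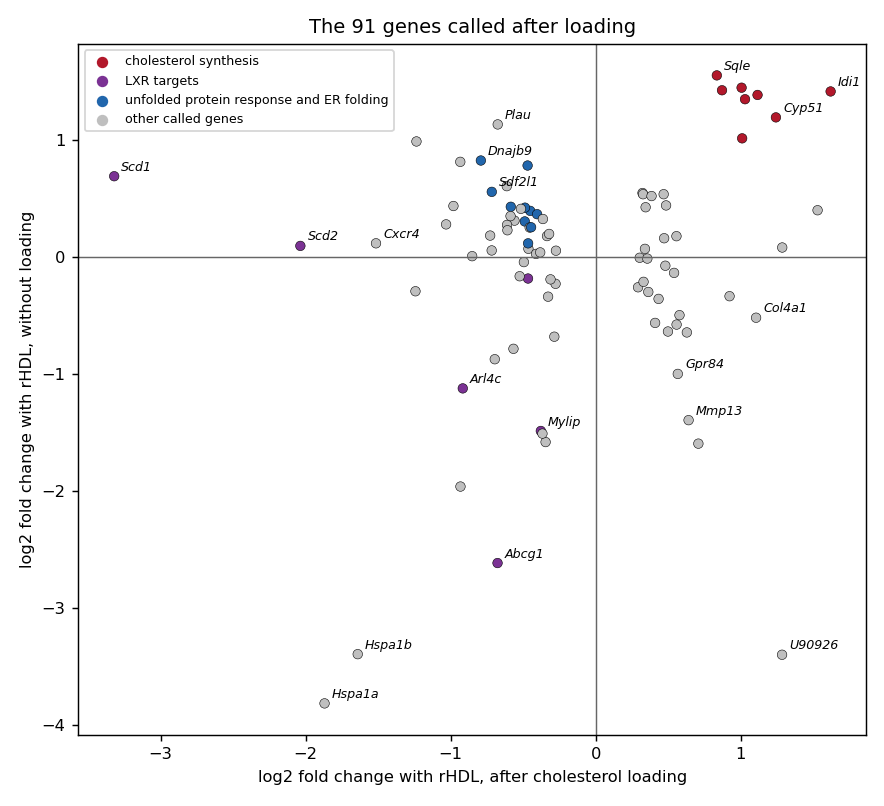
Log2 fold change with rHDL after loading (horizontal) and without loading (vertical) for the 91 genes called after loading, coloured by list; the 2 comparisons share no libraries. Called cholesterol synthesis genes lie in the upper right and called ER genes at the upper left, while Mmp13, Gpr84 and U90926 lie at the lower right.

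Hmox1, heme oxygenase, was the one called member of the NRF2 antioxidant list, of 23 tested. It had 454, 550 and 420 CPM with rHDL after loading and 649, 696 and 619 CPM with loading alone (-0.46 ± 0.09, adjusted p = 0.0245), a call kept only without replicate 2 of the loaded rHDL group. Gusb, a lysosomal glucuronidase, was the one called member of the 23 lysosome genes (-0.34 ± 0.06, adjusted p = 0.0107), lost without replicate 2 or 3 of the controls (0.0532 and 0.0657). Of those 23 lysosome genes 20 had a change below 0, with a median of -0.10.

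The cytokine, chemokine, interferon and MHC class II lists held 0 calls by edgeR after loading. Of 19 tested cytokine genes edgeR called 0, 15 had a change above 0, and the median was 0.19. At an unadjusted p under 0.05 there were 7, and DESeq2 called 5 higher (Il1a, Il1b, Il10, Il19 and Il1rn) and 1 lower (Il12b). Il1b had 7423, 6655 and 6220.1 CPM with rHDL after loading, against 5307, 5614 and 5725 CPM with loading alone, without overlap (0.29 ± 0.08, 95% interval 0.12 to 0.45, adjusted p = 0.112).

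Il12b, the shared subunit of interleukins 12 and 23, had 267, 218 and 277 CPM with rHDL after loading against 327, 343 and 293 CPM with loading alone (-0.34 ± 0.09, interval -0.52 to -0.15, adjusted p = 0.0961). Il10, an anti-inflammatory cytokine, had 184, 173 and 152 CPM against 121, 127 and 125 CPM (0.45 ± 0.13, interval 0.18 to 0.72, adjusted p = 0.125). In both the groups did not overlap and the adjusted p missed the threshold.

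Il6 had 680, 377 and 524 CPM with rHDL after loading and 519, 436 and 530 CPM with loading alone, which overlapped widely (0.09 ± 0.19, interval -0.31 to 0.49). Tnf was measured on 2.90% and Il1rn on 13.4% of their exon bases. The rest is covered by more than 1 annotated row, of the same gene or of another, so their levels are low. Tnf and Il1rn had 2.85 to 5.88 CPM and 8.69 to 11.5 CPM with rHDL after loading. With loading alone they had 3.59 to 3.87 and 5.61 to 6.82 CPM. Their changes were 0.13 ± 0.28 and 0.62 ± 0.15 (adjusted p = 0.898 and 0.0757).

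Of 8 CXC chemokine genes and 15 CC or interferon-dependent chemokine genes edgeR and DESeq2 called 0, with 4 and 1 at an unadjusted p under 0.05. Ccl2, which draws monocytes, had 262, 157 and 195 CPM with rHDL after loading against 235, 261 and 274 CPM with loading alone (-0.33 ± 0.15, adjusted p = 0.429). Cxcl1, which draws neutrophils, had 269, 317 and 279 CPM against 315, 436 and 374 CPM (-0.38 ± 0.14, adjusted p = 0.283). Neither was called, and for both the effect differed by loading: without it they rose with rHDL by 2.26 and 2.63, and the differences were -2.59 ± 0.22 (adjusted p = 2.16e-06) and -3.01 ± 0.20 (adjusted p = 3.94e-07).

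Of 35 tested interferon response genes edgeR and DESeq2 called 0, and 2 had an unadjusted p under 0.05. A change above 0 was seen for 32, beside 4486 of all 8965 tested genes, with a median of 0.18. Only 2 of the 35 were higher without overlap, beside 7.23% of all genes. Oas3, an antiviral RNA sensor chosen as an example after the values were seen, had 952, 850.3 and 1112 CPM with rHDL after loading against 873, 729 and 873 CPM with loading alone (0.24 ± 0.13, adjusted p = 0.511). Cxcl10 had 9833, 4819 and 7678 CPM against 7030.0, 4989 and 6369.6 CPM (0.28 ± 0.23, adjusted p = 0.704). With no loading 32 of the 35 fell with rHDL, beside 18.4% of all tested genes. For the difference 30 were called higher, beside 16.0% of all tested genes.

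The MHC class II genes were not called either. All 6 tested had a change above 0, with a median of 0.15, and 0 were called by edgeR or DESeq2 or had an unadjusted p under 0.05. H2-Aa had 842, 617 and 730.2 CPM with rHDL after loading and 747, 488 and 714 CPM with loading alone (0.17 ± 0.20, interval -0.27 to 0.61). With no loading all 6 fell with rHDL, beside 18.4% of all tested genes, with a median of -2.27. There H2-Aa averaged 108 ± 37.3 CPM with rHDL and 877 ± 111 CPM with LPS alone (SD, n = 3 each). The difference for H2-Aa was 3.19 ± 0.30 (adjusted p = 4.63e-06).

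Ptgs2 and Nos2 had intervals that span 0. Ptgs2, the inducible cyclooxygenase, had 8704, 9035 and 8918 CPM with rHDL after loading against 8467, 9644 and 8551 CPM with loading alone (0.00 ± 0.07, interval -0.15 to 0.15). Nos2, the inducible nitric oxide synthase, had 1613, 1677 and 1687 CPM against 1729, 1783 and 1588 CPM (-0.04 ± 0.07, interval -0.19 to 0.12). The intervals of Tlr4, the LPS receptor (0.22 ± 0.07, interval 0.07 to 0.37, adjusted p = 0.184), and of Gdf15, a stress cytokine (-0.29 ± 0.12, interval -0.54 to -0.04, adjusted p = 0.325), did not span 0, and neither gene was called. These intervals bound the change and do not show that it is 0.

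**Figure D4:**
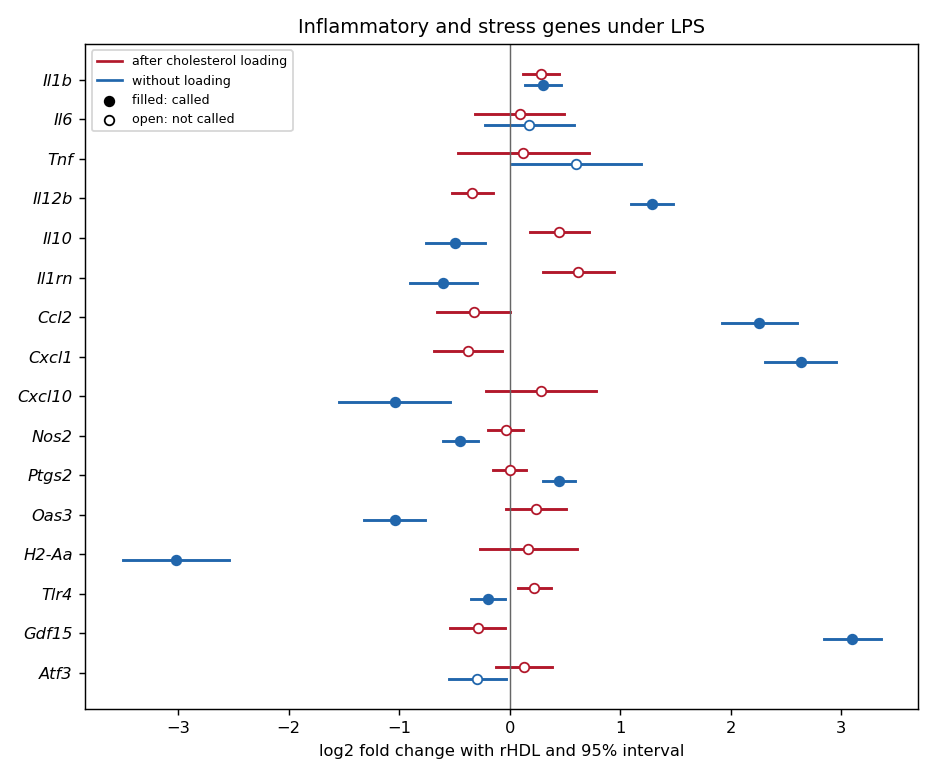
Log2 fold change with rHDL and its 95% interval for 16 inflammatory and stress genes, after loading (upper mark) and without loading (lower mark), with filled points for called genes. None of the 16 is called after loading. Without loading the called genes include Ccl2, Cxcl1, Gdf15 and Il12b, higher, and Cxcl10, Oas3 and H2-Aa, lower.

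Macrophage identity genes were not called. Of 18 tested, edgeR and DESeq2 called 0, with a median of -0.08 and 2 at an unadjusted p under 0.05. When there had been no loading 14 of them fell with rHDL, beside 18.4% of all tested genes. Csf1r, the receptor for macrophage colony-stimulating factor, had 1683, 1655 and 1752 CPM with rHDL after loading against 1709.7, 1542 and 1696 CPM with loading alone (0.04 ± 0.06, interval -0.10 to 0.18). Lyz2, lysozyme, had 14099.8, 10563 and 11360.2 CPM against 14318, 13061 and 13109.9 CPM (-0.17 ± 0.13, adjusted p = 0.660). Actb, beta-actin, changed by 0.16 ± 0.13 (adjusted p = 0.682).

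Across all genes, the effect of rHDL without loading was called for 18.1% of genes as higher and 18.4% as lower. The difference between the rHDL effects, after loading minus without, was called higher for 16.0% and lower for 14.2% of genes. Of the 91 genes called after loading, 68 were called for this difference as well. The difference contains the rHDL effect after loading, by which the 91 were chosen, so this overlap is raised by the choice and is no separate support. Of the 53 that fell, 20 rose without loading, 14 fell there too and 19 were not called there. Of the 38 that rose, 14 rose in both, 13 fell without loading and 11 were not called there.

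The authors' deposited table for this comparison lists 47 genes, 17 higher and 30 lower, with a largest adjusted p of 0.0475 and 0 ratios between 1/1.5 and 1.5. Of those 47 genes in the authors' deposited table, 39 were called here in the same direction and 8 were not called.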

How the data were processed

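The submitters' processing notes name cutadapt, HISAT2, featureCounts of Subread, DESeq2 and the mm10 build as used by the authors, and tool versions were not given in the sources used here. In the deposited count table are raw read counts for 32850 rows. Of these rows, 6696 have no exon base of their own and hold 0 counts. Genes whose rows overlap other rows, of the same gene or of another, are therefore undercounted. The authors' deposited comparison table gives, per the file headers, a mean normalized signal, a log2 fold change, p-values and a ratio of RPKM values.

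Rows were summed per symbol. edgeR 4.0.16 (R 4.3.3, limma 3.58.1) was fitted to the 12 libraries that include the 6 loaded ones, with TMM scaling and filterByExpr at a minimum count of 10. Totals were 9464916 to 15607889. Quasi-likelihood F tests were adjusted by Benjamini-Hochberg over all genes. CPM is TMM-scaled, except for the cell type marker sums, which are scaled by library totals. The TMM factors were 0.9425, 1.022 and 0.9719 with rHDL after loading, and 1.003, 1.037 and 1.011 with loading alone. SE is given for log2 changes and SD for CPM, and intervals are 95%. The edgeR fit was also run on simulated counts as a check of the script. The members and the 42 gene lists were chosen with earlier results of these data known. Named genes were the 12 largest rises and falls among calls averaging log2 CPM 3 or more whose groups did not overlap, up to 4 per list by p, a panel of cytokine, lipid and control genes, and the 10 smallest p for the difference. The text gives a part of these, selected after their values were seen, and results for some listed sterol genes are not reported here. Alternatives were DESeq2 1.42.0, its size factors, library totals, other filters, a replicate block, single-row genes, the loaded libraries alone, a minimum fold, a length correction and leaving out each library.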

Additional observations from a re-analysis of the deposited data

Results flagged for a closer look

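The effect of rHDL differed by loading for many of the genes named above, by edgeR's test of the difference itself (log2, after loading minus without, adjusted p under 0.05). Over all tested genes this difference was called higher for 16.0% and lower for 14.2%. Many named genes were chosen by their change after loading, which is part of the difference, and some by the p of the difference. Among sterol genes the difference was -1.36 for Insig1, -0.56 for Msmo1 and -0.72 for Sqle. Among LXR and fatty acid genes it was 2.77 for Abca1, 1.94 for Abcg1, 1.11 for Mylip, -4.01 for Scd1 and -2.13 for Scd2.

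Among ER genes the difference was below 0 for each named gene it was called for: -0.85 for Calr, -1.08 for Creld2, -1.62 for Dnajb9, -1.02 for Dnajc3, -0.80 for Hsp90b1, -1.25 for Hyou1, -0.70 for Manf, -0.59 for Pdia3, -0.91 for Pdia4, -0.77 for Pdia6, -1.28 for Sdf2l1, -0.69 for Rpn1, -0.33 for Spcs2 and -0.52 for Tram1. For the HSP70 genes it was above 0, at 1.95 for Hspa1a and 1.75 for Hspa1b, as it was for the ATF4 genes Chac1 (1.07), Slc7a5 (0.79) and Trib3 (0.67).

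Among inflammatory genes the difference was -2.59 for Ccl2, -3.01 for Cxcl1, -1.63 for Il12b, -3.39 for Gdf15 and -0.45 for Ptgs2, and 1.32 for Cxcl10, 0.94 for Il10, 1.22 for Il1rn, 0.41 for Nos2, 1.28 for Oas3, 0.42 for Tlr4 and 3.19 for H2-Aa. Among macrophage and structural genes it was 0.88 for Csf1r, 0.94 for Lyz2 and 1.17 for Actb.

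Among the other named genes it was -1.63 for Cxcr4, -0.78 for Zfp36l2, -1.42 for Aph1c, -0.86 for Hbegf, -1.81 for Plau, -0.54 for Hmox1 and -0.52 for Gusb, and 2.03 for Mmp13, 1.13 for Ezr, 0.55 for Ccrn4l, 1.56 for Gpr84, 1.03 for Cbr2, 1.62 for Col4a1, 1.26 for Col4a2 and 4.68 for U90926.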

How the results depend on the processing

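Against 38 higher and 53 lower calls, DESeq2 gave 94 and 83 and contained 90 of the 91 genes, no low-count filter gave 90 and 86, and a correction for gene length, added after seeing the data, gave 90 and 96. Library totals gave 25 and 67, the 6 loaded libraries alone 19 and 23, and a minimum change of 1.5-fold 1 and 4. Leaving out each library in turn gave 10 to 68 higher and 20 to 55 lower calls. DESeq2 size factors, the stricter filter and genes with 1 row kept both counts within 1.5 times. For the difference between rHDL effects only library totals moved a count by more, to 2124 lower against 1272. With the replicate number as a block the fit called 277 higher and 209 lower genes, all 91 among them. The labels do not say that the numbers pair libraries. In their deviations from the group means, same-numbered libraries of the 2 loaded groups had correlations of 0.184, 0.284 and -0.00454, and differently numbered ones -0.269 to 0.110, so not every pair was correlated and the fit without the block was kept. As a hint from the data, the order of the replicates along the first and the third principal component was the same in all 4 groups, while replicate 3 of the loaded rHDL group did not correlate best with its own number. The causes of these shifts were not tested. For the changes of single named genes over these settings, 144 values passed the threshold that otherwise missed it, 122 missed a threshold otherwise passed, and 0 called changes reversed. Another 24 values, called in neither setting, changed sign.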

Other observations

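Genes of oxidative phosphorylation, glycolysis and the cell cycle gave 0 calls after loading by edgeR or DESeq2. Of 22 oxidative phosphorylation genes 0 had an unadjusted p under 0.05, with log2 changes from -0.14 to 0.15 and a median of -0.02. Of 19 glycolysis and hypoxia genes 2 had one, with a median of 0.08, and of 20 cell cycle genes 3 did, with a median of -0.10. Of 16 inflammasome genes edgeR called 0 and DESeq2 1, Il1b, with 3 at an unadjusted p under 0.05 and a median of 0.11. Of 23 NF-kB feedback genes edgeR called 0 and DESeq2 2, Lcn2 and Zfp36, both higher, with 4 at an unadjusted p under 0.05 and a median of 0.13. In the Toll-like receptor list of 18 genes both tools called 0, with 3 at an unadjusted p under 0.05 and a median of 0.10.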
